A study of Mus musculus with 6 samples.

Results

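The genes described here are 10 mouse genes of tissue polarity: the core planar cell polarity genes Vangl1, Vangl2, Celsr1, Celsr2, Celsr3, Prickle1 and Prickle2, the Fat-Dachsous cadherins Dchs1 and Fat4, and the polarity scaffold Scrib. They were taken by symbol from the 24389 Ensembl gene identifiers in each file, and all 10 were found. RNA sequencing was done on dorsal pancreas of E13.5 mouse embryos, with 3 libraries labelled as knockout (KO) of Bicaudal C1 (Bicc1) and 3 from wild type (WT). Both groups were on a mixed C57BL/6 and ICR background, and neither a treatment nor the kind of Bicc1 allele is given in the labels. The labels do not say whether a library came from 1 embryo or several, so the p-values rest on a spread among libraries that may be technical. The 12 markers of pancreatic epithelium that were looked up (such as Pdx1, Ptf1a, Sox9 and Cpa1) were each measured in all libraries and had a mean value of at least 1.

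Planar cell polarity is the alignment of cells within the plane of a tissue. In its core pathway the membrane protein Vangl, with the cytoplasmic protein Prickle, gathers at cell borders opposite to Frizzled and Dishevelled. Cadherins of the Celsr family bind each other across these borders. The giant cadherins Fat and Dachsous bind each other between neighbouring cells and carry a second polarity signal, which also touches the Hippo growth pathway. Scrib binds Vangl proteins and acts in both planar and apicobasal polarity. Celsr genes have been tied to endocrine differentiation in the mouse pancreas. Bicc1 encodes an RNA-binding protein that has been tied to Dishevelled signalling and to the orientation of cilia.

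Values are those the authors deposited, whose unit is not given in the sources used here. They are not counts, so the read depth behind each is unknown, and levels of different genes were not compared. They summed to between 674295 and 716255 per library, and the values of a group are listed below by replicate, from 1 to 3. Log2 changes are on log2(value + 1), which understates the change of low genes, and were tested with limma over the 13911 genes with a mean of at least 1. An adjusted p of 0.05 after Benjamini-Hochberg adjustment over all of them was the threshold. Bicc1 itself, the check of the labels, had a KO mean of 4.45 ± 0.479 and a WT mean of 19.1 ± 0.793 (SD, n = 3 each), and it fell by 1.89 on the log2 scale (limma, adjusted p 0.00067). The libraries also differed along the share of G and C bases (GC content) of a gene's transcript. The first principal component (57.3% of the variance) set KO 1, KO 2 and WT 3 apart from KO 3, WT 1 and WT 2. GC-rich genes tended to be high in the first 3 libraries, and across tested genes the median log2 change was -0.089 below 45% GC and 0.20 from 55% GC upwards. Changes are therefore also given after removal of each library's trend on GC content (GC correction), and for Dchs1 and Scrib within each side of the component.

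The members differ in base composition, the property along which the libraries differed. Celsr1, Celsr2, Celsr3, Dchs1 and Scrib had transcripts of 57.8% to 61.2% GC, and the other 5 members lay between 47.7% and 53.2%. Stretches of 120 bases show this for 3 members. Each is the stretch, in frame, whose GC content is nearest to that of the gene's whole longest reading frame in the longest GENCODE transcript (release M21, build GRCm38), with G and C in capitals.
Scrib: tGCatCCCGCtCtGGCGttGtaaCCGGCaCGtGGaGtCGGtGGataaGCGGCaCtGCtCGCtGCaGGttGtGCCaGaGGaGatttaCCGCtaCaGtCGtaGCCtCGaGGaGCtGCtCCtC
Dchs1: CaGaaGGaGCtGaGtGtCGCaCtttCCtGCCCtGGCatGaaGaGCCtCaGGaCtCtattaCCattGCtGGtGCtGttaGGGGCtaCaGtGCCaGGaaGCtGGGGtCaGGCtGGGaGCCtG
Vangl1: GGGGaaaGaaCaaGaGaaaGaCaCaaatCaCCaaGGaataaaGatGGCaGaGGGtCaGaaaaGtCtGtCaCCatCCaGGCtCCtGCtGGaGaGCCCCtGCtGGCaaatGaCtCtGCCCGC
The reading frame of Scrib is 60.5% GC, that of Dchs1 58.0% and that of Vangl1 52.4%. The stretches start at bases 10, 4 and 70 of the frame, counted from the A of ATG, and run 5′ to 3′.

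None of the 10 members passed the threshold between Bicc1 KO and WT. The largest change among the 9 tested was that of Dchs1, which did not pass (adjusted p 0.47 in limma). Among the 9 members tested, the log2 mean was higher in KO for 8 (53.5% of all genes) and lower for 1, and the median change was 0.12 on the log2 scale where that of all genes tested was 0.014. Limma called 0 members at an adjusted p of 0.05, where 0.0144% of all genes were called (2 of 13911, Bicc1 and 4930533K18Rik, the latter named after its values were seen). At an unadjusted p of 0.05 it counted 1 member, higher in KO, where 5.89% of all genes were counted as higher and 4.36% as lower. The KO libraries lay wholly above the WT libraries in 2 members, Dchs1 and Vangl2, and wholly below in 0, where 7.67% of all genes lay above and 8.77% below. After the GC correction limma called 0 members (0.0299% of all genes) and 1 reached an unadjusted p of 0.05 as higher (4.03% of all genes, with 4.3% lower). The log2 mean was then higher for 6 of 9 members (51% of all genes), with a median of 0.032, and the groups were apart in Dchs1 (5.71% of all genes wholly above, 8.13% wholly below) and overlapped in the other 8.

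**Figure D1:**
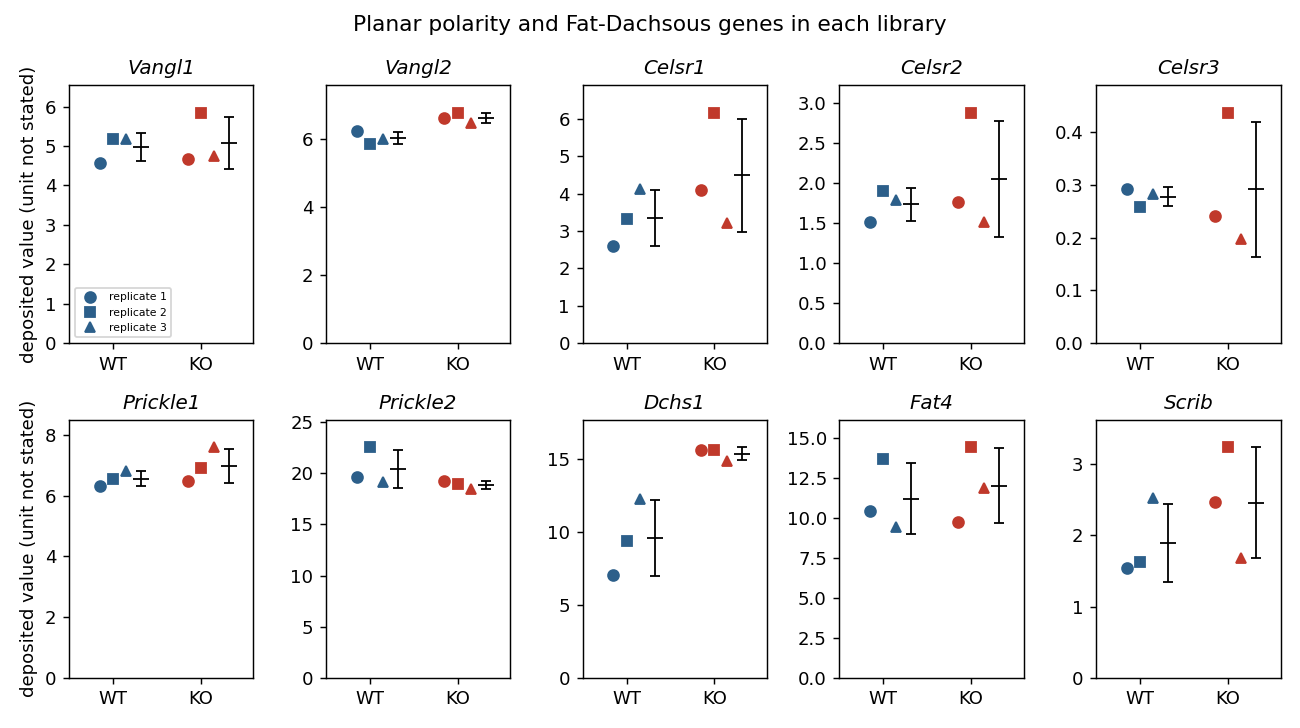
Deposited value (y axis, unit not stated, starting at 0) of each of the 10 members in the 3 WT libraries (blue) and 3 KO libraries (red), with the replicate given by the symbol and the group mean ± SD in black. Dchs1 is between 14.9 and 15.6 in KO and between 7.05 and 12.2 in WT, while KO 2 (red square) is the highest library for 8 of the 10 genes.

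Dchs1 (ENSMUSG00000036862) encodes Dachsous 1, the cadherin that serves as ligand of Fat4. It was 15.6, 15.6 and 14.9 over the KO libraries and 7.05, 9.36 and 12.2 over WT. The KO libraries were nearly level, the WT libraries were spread, and the groups did not overlap. The mean was 15.4 ± 0.429 in KO (SD, n = 3), which is 161% of the 9.55 ± 2.60 in WT (SD, n = 3). The log2 change of 0.66 (SE 0.16, 95% interval 0.28 to 1.05) had an unadjusted p of 0.0044 and an adjusted p of 0.47 in limma, and so did not pass. By unadjusted p it ranked 93 among the 13911 genes tested. Among the 602 tested genes of 58% to 60% GC, to which Dchs1 belongs, the median log2 change was 0.23 and the 95th percentile 0.54.

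The difference in Dchs1 kept its sign after GC correction and within each side of the first component, while its size varied. After GC correction the log2 change was 0.46 (95% interval 0.15 to 0.76, unadjusted p 0.0090, adjusted p 0.56 in limma), and the KO libraries still lay above the WT libraries. Within KO 1, KO 2 and WT 3 the difference was 0.33, against 0.80 among KO 3, WT 1 and WT 2. WT 3, the WT library on the GC-rich side, was the WT library nearest to KO. Leaving out 1 library at a time gave changes from 0.48, without WT 1, to 0.84, without WT 3, with adjusted p between 0.13 and 0.91. In the reference annotation 5.86% of the exonic bases of Dchs1 are shared with the pseudogene Gm15645 on the opposite strand, which these unstranded libraries cannot tell apart. Gm15645 itself was 5.64, 7.02 and 6.05 over the KO libraries and 5.33, 5.75 and 6.09 over WT, so its groups overlapped.

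Fat4 (ENSMUSG00000046743), the receptor partner of Dachsous 1, did not separate the groups. It was 9.73, 14.4 and 11.9 over the KO libraries and 10.5, 13.7 and 9.43 over WT. Both groups spanned nearly the same range, and the replicates labelled 2 were the highest in each. The log2 change was 0.094 (SE 0.17, 95% interval -0.29 to 0.48), with an adjusted p of 0.81 in limma, and it was -0.036 without KO 2 and -0.011 without WT 3. In the annotation 7.04% of its exonic bases are shared with the antisense gene C230034O21Rik, which was between 0.073 and 0.55 in all libraries. A difference of the size seen in Dchs1 lies outside the interval of Fat4, but the difference between the 2 genes was not itself tested.

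Vangl2 and Vangl1 encode the related four-pass membrane proteins of the core pathway. Vangl2 (ENSMUSG00000026556), the gene of the looptail mouse, was 6.62, 6.77 and 6.45 over the KO libraries and 6.22, 5.86 and 6.01 over WT. Every KO library was above every WT library, with a narrow spread in both groups. In KO the mean stood at 110% of WT, and the change of 0.12 on the log2 scale (SE 0.069, 95% interval -0.045 to 0.28) had an adjusted p of 0.49 in limma. After GC correction the change was 0.032 (95% interval -0.11 to 0.17) and the groups overlapped. Vangl1 (ENSMUSG00000027860) was 4.66, 5.85 and 4.75 over the KO libraries and 4.56, 5.19 and 5.17 over WT, with overlapping groups. Its log2 change was 0.023 (95% interval -0.21 to 0.26), and its sign turned in 4 of the 18 alternatives run, 2 of which left out a library (-0.065 without KO 2 and -0.028 without WT 1). The 95% intervals of both genes end at 0.28 or lower.

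Celsr1, Celsr2 and Celsr3 encode seven-pass cadherins that bind each other across cell borders. Celsr1 (ENSMUSG00000016028), the member best known from epithelia, was 4.09, 6.17 and 3.22 over the KO libraries and 2.59, 3.33 and 4.11 over WT. KO 2 was far above the other 5 libraries, and WT 3 lay above KO 1 and KO 3. The log2 change was 0.32 (SE 0.21, 95% interval -0.17 to 0.80), with an adjusted p of 0.52 in limma. It was 0.11 without KO 2 and 0.10 after GC correction.

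Celsr2 (ENSMUSG00000068740) showed the same single high library. It was 1.76, 2.88 and 1.51 over the KO libraries and 1.51, 1.91 and 1.79 over WT. Apart from KO 2 the groups overlapped, and the log2 change of 0.13 (95% interval -0.25 to 0.51, adjusted p 0.72 in limma) was -0.053 without KO 2 and -0.070 after GC correction. Celsr3 (ENSMUSG00000023473), known mainly from neurons, was low throughout and did not reach the mean of 1 needed for testing. Its values were 0.241, 0.437 and 0.196 over the KO libraries and 0.293, 0.258 and 0.282 over WT, so KO 2 was again the highest. With no filter on low values its log2 change was 0.011 (adjusted p 0.97 in limma).

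Prickle1 and Prickle2 encode cytoplasmic partners of Vangl with a PET domain and LIM domains. Prickle1 (ENSMUSG00000036158) was 6.49, 6.90 and 7.59 over the KO libraries and 6.33, 6.54 and 6.82 over WT. The groups overlapped, and the log2 change of 0.077 (95% interval -0.11 to 0.26) had an adjusted p of 0.67 in limma. Prickle2 (ENSMUSG00000030020) was the only tested member with a lower mean in KO. It was 19.2, 19.0 and 18.4 over the KO libraries and 19.6, 22.6 and 19.1 over WT, so WT 2 set most of the difference. Its log2 change was -0.11 (95% interval -0.29 to 0.080, adjusted p 0.56 in limma) and -0.037 without WT 2.

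Scrib (ENSMUSG00000022568), the scaffold with leucine-rich repeats and PDZ domains, is the most GC-rich of the 10 members. It was 2.46, 3.24 and 1.68 over the KO libraries and 1.54, 1.62 and 2.53 over WT. The high libraries were KO 1, KO 2 and WT 3, those on the GC-rich side of the first component, and the low ones were the other 3. The log2 change of 0.25 (SE 0.19, 95% interval -0.20 to 0.70, adjusted p 0.57 in limma) was -0.0064 after GC correction and 0.090 without KO 2. Within the sides it was 0.12 and 0.056.

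**Figure D2:**
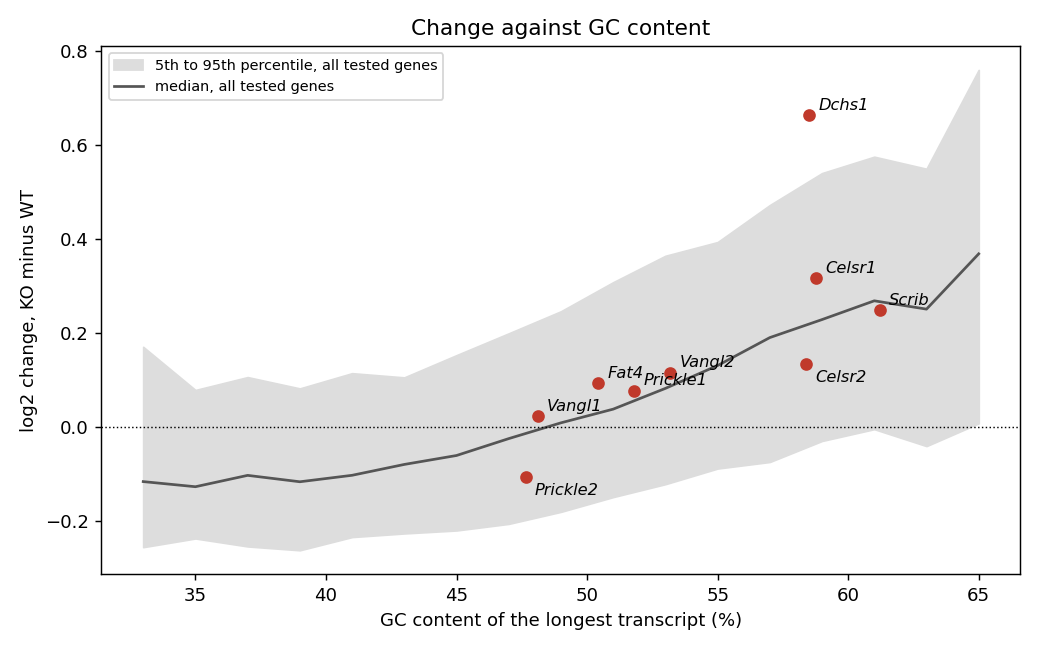
Log2 change of KO minus WT (y axis) against GC content of the longest transcript (x axis, percent) for the 9 tested members (red), over the median (line) and the 5th to 95th percentile (grey) of all tested genes in steps of 2 percentage points holding at least 20 genes. Dchs1, at 58.5% GC and 0.66, lies above the grey band, whose upper edge is 0.54 there, and the other 8 members lie inside it.

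The library KO 2 was the highest of the 6 for 8 of the 10 members, the exceptions being Prickle1 and Prickle2. Among all tested genes KO 2 was the highest library for 30.9%, and among those of at least 55% GC for 71.2%. WT 1 was the lowest library for 6 members, against 15.1% of all tested genes and 29.6% of those of at least 55% GC. KO 2 also had the largest sum of the 12 epithelium markers, 855, where the other KO libraries had 727 and 577 and the WT libraries 634 to 768. Of these 12 markers 0 had groups apart and the median log2 change was -0.068. After GC correction the median was -0.16, with 4 wholly below in KO (8.13% of all genes) and 4 lower at an unadjusted p of 0.05 in limma (4.3% of all genes). In bulk tissue, fewer cells of a type and less RNA per cell cannot be told apart. The part of these markers in the high values of Celsr1, Celsr2 and Celsr3 was not tested.

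**Figure D3:**
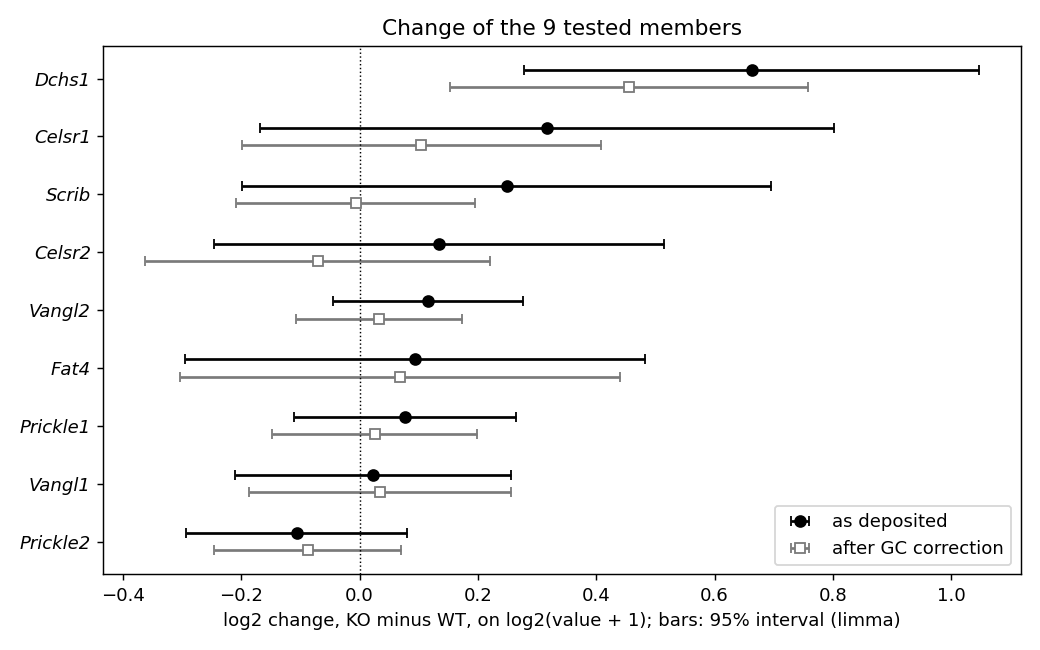
Log2 change of KO minus WT on log2(value + 1) (x axis) with its 95% interval from limma for the 9 tested members, from deposited values (black circles) and after GC correction (grey squares). The interval of Dchs1 lies above 0 in both, without adjustment for the number of genes tested, and those of the other 8 members include 0.

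Among markers of other cell types, 5 of 8 endothelial markers were apart between the groups in the same direction as Dchs1, and Kdr, Tek and Emcn overlapped. Of the 8, 7 were higher on average in KO, 5 with every KO library above every WT library (Pecam1, Cdh5, Tie1, Cldn5 and Esam), where 7.67% of all genes lay wholly above. In limma 0 passed, and 5 were higher at an unadjusted p of 0.05 (5.89% of all genes). Their median log2 change was 0.32, and after GC correction it was 0.17, with 4 wholly above (5.71% of all genes). Their summed value was 101 to 124 in KO and 86.4 to 91.8 in WT. The 6 leukocyte markers, of which 5 were tested and Cd68 and Tyrobp lay wholly above in KO (1 after GC correction, against 7.67% and 5.71% of all genes), summed to 19.03 to 22.7 in KO and 15.3 to 18.98 in WT, with Ptprc under 1 in every library. Csf1r, Adgre1 and Aif1 overlapped, and Aif1 had a lower log2 mean in KO (change -0.096). The 12 mesenchyme markers summed to 803 to 884 in KO and 870 to 893 in WT. Of these, 1 lay wholly above and 3 wholly below in KO (7.67% and 8.77% of all genes), with a median log2 change of -0.031, and after GC correction 0 lay above and 4 below (5.71% and 8.13%), with a median of -0.12. The 12 markers of neurons and neural crest summed to 98.9 to 104 and 101 to 117, with Foxd3, Elavl3 and Prph under 1 in every library. Over the 9 tested the median log2 change was -0.060, or -0.095 after GC correction. After correction 2 lay wholly below in KO (8.13% of all genes), and 2 were lower at an unadjusted p of 0.05 in limma (4.3%). The 10 endocrine markers summed to 303 to 552 and 413 to 553, and 2 of them, Neurog3 and Insm1, lay wholly below in KO (8.77% of all genes). Their median log2 change was -0.13, or -0.27 after GC correction, with 2 wholly below (8.13% of all genes). The 7 mesothelium markers summed to 39.9 to 56.7 and 41.9 to 47.0, with Msln under 1 throughout. None of the markers named here lay at the floor of 0.01 in all libraries. The part of the endothelial and leukocyte markers in the difference of Dchs1 was not tested.

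The wider pathway was described from 5 lists with 98 genes, of which 96 were found and 87 tested. None passed the threshold in limma, 7 were higher and 0 lower at an unadjusted p of 0.05 (5.89% and 4.36% of all genes tested), and 48 had a higher log2 mean in KO. The KO libraries lay wholly above WT in 7 (Wnt11, Dvl3, Smurf1, Tead3, Nf2, Vgll4 and Llgl1) and wholly below in 1 (Cdc42, named after its values were seen), where 7.67% of all genes lay above and 8.77% below, so the share above was near the background. Wnt11, Smurf1, Tead3, Nf2 and Vgll4 were likewise named for their low p in these data, while Dvl3 and Llgl1 were on a fixed list. The median log2 change of the 87 was 0.017, close to the 0.014 of all genes. After GC correction it was 0.0015, with 7 wholly above and 1 wholly below (5.71% and 8.13% of all genes). In limma 5 were then higher and 2 lower at an unadjusted p of 0.05 (4.03% and 4.3% of all genes).

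Of 19 tested genes among the other core components and ligands, 12 were higher on average in KO, and the median change was 0.064 (log2), or 0.016 after GC correction. Wnt11, a ligand of non-canonical Wnt signalling, was 1.44, 1.69 and 1.46 over the KO libraries and 0.727, 0.991 and 1.03 over WT. The groups did not overlap, the mean in KO stood at 167% of WT, and the log2 change of 0.40 did not pass (adjusted p 0.47 in limma). The WT mean was 0.915, under the mean of 1 needed for testing, so Wnt11 was tested only through its KO values. It was also named for its low p in these data, so neither its p nor its separation is support for a change. After GC correction the change of Wnt11 was 0.24 and the groups were still apart. Ptk7, a receptor-like protein of planar polarity, was 20.7, 24.1 and 18.9 over the KO libraries and 14.5, 14.2 and 19.6 over WT, where WT 3 overlapped the KO range. Its change was 0.39 (adjusted p 0.47 in limma) and 0.17 after GC correction, which also removed the overlap.

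Of the Frizzled and Dishevelled partners of the core pathway that were named here, 0 of 2 and 1 of 3 had groups apart (7.67% of all genes wholly above, 8.77% wholly below). Fzd3 averaged 10.3 ± 1.05 for KO and 10.65 ± 2.09 for WT, and Fzd6 5.72 ± 0.376 and 5.91 ± 0.673 (SD, n = 3 each). Among the cytoplasmic Dishevelled proteins, Dvl1 was 3.32 ± 0.764 in KO and 3.49 ± 0.415 in WT, Dvl2 3.91 ± 0.131 and 3.43 ± 0.391, and Dvl3 2.15 ± 0.415 and 1.67 ± 0.148. The one with groups apart was Dvl3, with a log2 change of 0.23 that was 0.099 after GC correction, where the groups overlapped. The ligand Wnt5a was 15.8 ± 2.97 in KO and 15.7 ± 1.05 in WT, with a log2 change of -0.0070 (95% interval -0.30 to 0.29). Its receptors Ror2 and Ryk had changes of 0.23 and -0.015, and that of Ror2 was 0.012 after GC correction. Adjusted p in limma lay between 0.47 and 0.98 for these 8 genes.

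Among the other Fat-Dachsous genes, the log2 mean was higher in KO for 3 of the 6 tested and lower for 3. Fjx1 encodes four-jointed box 1, the relative of the fly kinase that modifies Fat and Dachsous cadherins. It was 11.3, 12.3 and 8.62 over the KO libraries and 12.1, 11 and 12.9 over WT, with overlapping groups. Its log2 change was -0.16 (95% interval -0.46 to 0.14, adjusted p 0.59 in limma) and -0.40 after GC correction (95% interval -0.59 to -0.21), where the groups were apart, with an unadjusted p of 0.0015 and an adjusted p of 0.37. The transcript of Fjx1 is 60.5% GC. Fat1, a large cadherin of the same family, averaged 20.5 ± 2.45 for KO and 17.7 ± 2.32 for WT (SD, n = 3 each), a log2 change of 0.21, with an adjusted p of 0.49 in limma. Lix1, a relative of the fly gene lowfat, was 3.28 ± 0.404 and 3.90 ± 0.442, with a change of -0.20, and Fat3 was under 1 in all libraries and not tested.

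Hippo pathway genes, which Fat4 and Dchs1 can act on, had a median log2 change of 0.015 over 24 tested genes, 13 of them higher in KO. Vgll4, a cofactor that competes with Yap1 for Tead proteins, was 17.1, 18.3 and 15.6 over the KO libraries and 11.9, 12.4 and 14.5 over WT, with groups apart before and after GC correction (log2 change 0.37 and 0.22). Nf2, the tumour suppressor merlin, was 30.2 ± 0.363 in KO and 26.1 ± 1.53 in WT, and Tead3 was 11.96 ± 0.692 and 9.77 ± 0.746 (SD, n = 3 each). Both had groups that overlapped after GC correction. Vgll4, Nf2 and Tead3 were named for having the lowest p of this list in these data, so their separation is not support for a change. The coactivator Yap1 had a log2 change of 0.028 (95% interval -0.14 to 0.20) with overlapping groups. After GC correction it was 0.083 (95% interval -0.042 to 0.21), and the KO libraries lay wholly above WT (5.71% of all genes). The Yap targets Ccn1 and Ccn2 had changes of 0.093 and 0.26 with overlapping groups. From deposited values, the adjusted p of these 6 genes lay between 0.469 and 0.871 in limma.

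Scribble partners and other apicobasal polarity genes had a median of 0.024 over 20 tested genes. Llgl1, the lethal giant larvae homologue that works with Scrib, was 12.4, 12.2 and 11.9 over the KO libraries and 8.44, 8.12 and 10.7 over WT. The groups were apart, with a log2 change of 0.40 (95% interval 0.15 to 0.64, adjusted p 0.47 in limma), but they overlapped after GC correction (0.19). Dlg1, the third scaffold of that module, averaged 18.4 ± 1.21 for KO and 18.4 ± 0.645 for WT (SD, n = 3 each). Git1, which binds the Scrib complex, was 4.79, 6.95 and 3.42 over the KO libraries and 2.54, 2.68 and 4.95 over WT, high in the same 3 libraries as Scrib, and its groups overlapped. Dlg4, a neuronal relative of Dlg1, had a change of 0.29 with overlapping groups.

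Effectors downstream of the core pathway had a median of -0.036 over 18 tested genes, 8 of them higher in KO. Smurf1, a ubiquitin ligase that acts on Prickle1, was 10.2, 11.7 and 10.7 over the KO libraries and 8.47, 7.99 and 9.43 over WT, apart before and after GC correction (log2 change 0.30 and 0.16, adjusted p 0.47 and 0.58 in limma). The formin gene Daam2 had a change of 0.20 and the kinase gene Rock1 of -0.18, each with overlapping groups. Smurf1, Daam2 and Rock1 were named for having the lowest p of this list in these data. Intu and Invs, which act in planar polarity and in cilia, had changes of -0.051 and 0.049, with 95% intervals of -0.26 to 0.16 and -0.16 to 0.26.

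**Figure D4:**
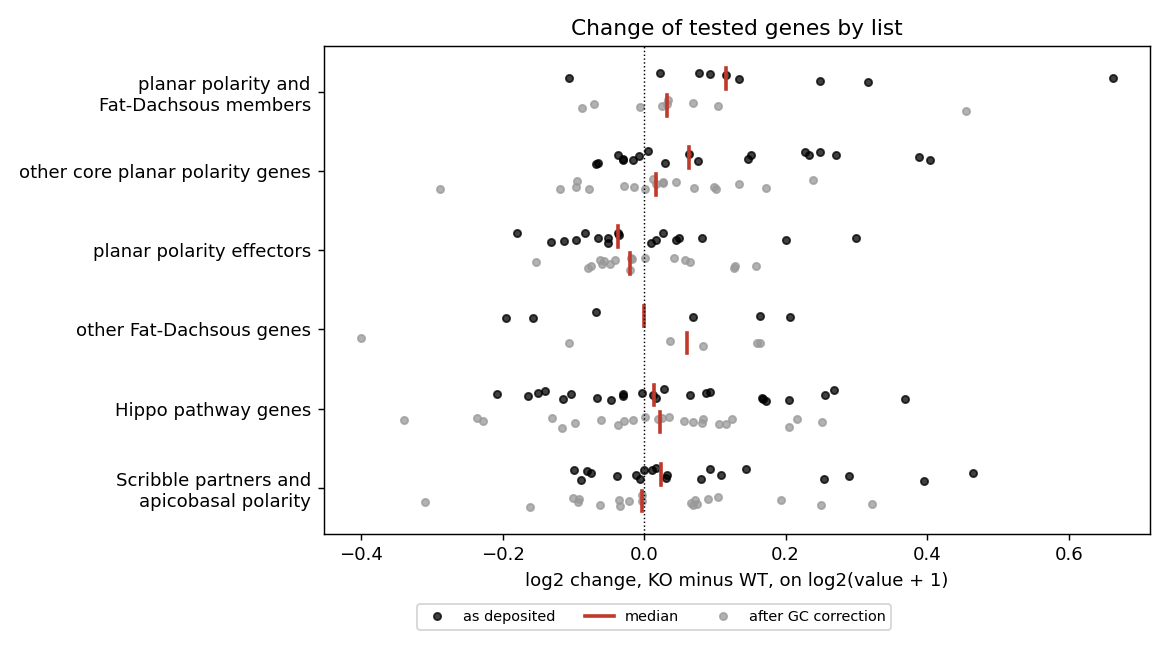
Log2 change of KO minus WT (x axis) of each tested gene in the 10-member set and in the 5 other lists, from deposited values (black) and after GC correction (grey), with the list median in red. Dchs1 (0.66, and 0.46 after correction) is the point farthest to the right in both rows of the members, and Fjx1 (-0.40 after correction) the farthest to the left.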

How the data were processed

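Libraries were made from dorsal pancreas RNA with the TruSeq RNA v2 kit, per the labels' protocols. That kit does not mark strand. The submitters' processing notes name CASAVA 1.82, Bowtie 0.12.7 and build mm9. How genes were counted and scaled, and on which annotation, is not given in the sources used here. Each library has 1 deposited file, in which the signal of a gene is never negative and has a floor of 0.01, with unknown depth.

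Symbols were found for 22624 identifiers (92.8%), and names, GC content and exon overlap came from GENCODE M21 (GRCm38), whose coordinates are not given. Deposited values were used unscaled. The test was limma 3.58.1 (R 4.3.3) on log2(value + 1), two-sided, with a trend on the mean and no term but group, over 13911 genes with a mean of at least 1. The GC correction subtracts a loess of each library's deviation on GC content (span 0.3) over 13385 genes (96.2%). Tables and figures used Python 3.11.15. The same fit, with no GC correction, was tested on simulated data for KO against WT over the 13385 genes with a GC content (200 changed), not all 13911. It recovered 51.5% of changes of 0.5, 76.7% of changes of 1 and 100% of changes of 2 log2 units, with 13 false calls. The simulated noise was independent between genes and held no GC trend, unlike the deposited values. These rates therefore do not give the power of the test in these libraries.

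The members, gene lists, tests and alternatives were chosen with earlier results of these data known. Named genes are Bicc1, the members, the 3 genes of lowest p in each of the 5 other lists and 20 fixed genes, of which Dchs2 was not analysed here, nor was Prickle4 of the lists. Alternatives were other scalings, filters, a pseudocount of 0.1, robust moderation, GC correction, a term for the component side, a replicate block and fits without each library in turn.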

Additional observations from a re-analysis of the deposited data

How the results depend on the processing

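With 3 libraries a group of unknown depth, limits rest on the spread between libraries. The 9 members tested gave 0 calls in limma in each of the 18 alternatives run (Celsr3 was tested with no filter on low values alone), as did the other pathway genes, where unadjusted counts over all genes ran from 457 to 3111. Dchs1, Vangl2, Celsr1 and Prickle1 had a higher and Prickle2 a lower KO mean in all of them.

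The count of all genes past the threshold, 2, was 1 with no filter on low values, 4 after GC correction, and 1 to 7 when each library was left out, with 7 without KO 2 and 1 without KO 1, KO 3, WT 1 or WT 3. With the replicate block it was 0, with 656 genes at an unadjusted p of 0.05 in limma, and 1 with the block and GC correction. Same-numbered libraries did not deviate together (correlations of -0.22, -0.40 and -0.64). These correlations had no GC correction and hold the contrast along the first component, so they cannot decide whether the number pairs libraries. The block left 0 members called. Bicc1 had an adjusted p of 0.088 under it. The count of members whose groups do not overlap was 1, not 2, after GC correction.

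Signs turned in 16 named genes, none past the threshold. After GC correction, with or without the block, changes were -0.070 in Celsr2, -0.0064 in Scrib, 0.070 in Fzd3, -0.028 in Dvl2, 0.0015 in Ryk, 0.026 in Wnt5a, 0.0012 in Intu and 0.072 in Dlg1. With the component side as a term they were -0.0086 in Vangl1, 0.073 in Wnt5a and 0.036 in Dlg1. With GC correction and side together, chosen after seeing the data, they were -0.012 in Vangl1, -0.057 in Celsr2, -0.058 in Scrib, 0.050 in Fzd3, -0.0061 in Ror2, 0.084 in Wnt5a, 0.016 in Intu, -0.014 in Ccn1 and 0.074 in Dlg1. When each library was left out, ranges were -0.065 to 0.072 in Vangl1, -0.053 to 0.26 in Celsr2, -0.036 to 0.24 in Fat4, -0.12 to 0.11 in Fzd3, -0.12 to 0.0067 in Fzd6, -0.21 to 0.0069 in Dvl1, -0.054 to 0.032 in Ryk, -0.14 to 0.096 in Wnt5a, -0.11 to 0.014 in Intu, -0.015 to 0.085 in Invs, -0.017 to 0.066 in Yap1, -0.079 to 0.18 in Ccn1 and -0.049 to 0.038 in Dlg1. The cause was not tested.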
